A study of Rattus norvegicus with 132 samples.

Results

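The genes described here are the drug and xenobiotic metabolism enzymes measured in rat kidney. They were taken as all rows of the deposited table whose symbol begins with Cyp and a digit, Gst, Ugt1, Ugt2, Sult, Aldh or Akr1, which gave 54 of the 9271 genes. The 54 comprised 11 cytochrome P450 genes of the families Cyp1 to Cyp3, 7 of Cyp4 and 9 of other Cyp families, 10 aldehyde dehydrogenases (Aldh), 5 aldo-keto reductases (Akr1), 8 glutathione S-transferases (Gst) and 4 sulfotransferases (Sult). None of the UDP-glucuronosyltransferases (Ugt1, Ugt2) was among the rows analysed here.

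Xenobiotic metabolism is classically divided into a first phase, in which cytochromes P450, aldehyde dehydrogenases and aldo-keto reductases oxidise or reduce a compound, and a second phase, in which transferases join it to glutathione, sulfate or glucuronic acid. In the kidney many of these enzymes are made by the epithelium of the proximal tubule, whose straight segment lies at the border of cortex and medulla. The same families also handle the body's own lipids: Cyp4a enzymes hydroxylate fatty acids, Cyp2c enzymes make epoxides of arachidonic acid, and Akr1 enzymes reduce aldehydes and steroids.

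Rat kidney sections were profiled by GeoMx, an assay that reads probe barcodes, cleaved off the section with light, one region of interest (ROI) at a time. The series, on trauma-induced acute kidney injury, has 4 groups of 3 rats that the labels call Sham, HS, RM and RM-HS. The labels do not spell the abbreviations out, give no strain, age, dose or time, and state no treatment that the groups share. ROIs were picked by hand in the cortex, the corticomedullary junction (junction below), glomeruli and the medulla, and probes of the mouse transcriptome set were used on rat tissue, so that each value also depends on how well a mouse probe binds the rat transcript. The families hold close paralogs, and signal of one member may include another.

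The 132 ROIs comprised 36 of Sham, 35 of RM, 32 of RM-HS and 29 of HS. Plate C of the sequencing wells held 24 of the Sham ROIs with RM and RM-HS, and plate E held the other 12 (3 in each area) with all of HS, so that each injury was compared with the Sham of its own plate. An RM glomerular ROI on plate A, where no Sham was, stayed out of the fit. Wells were put into 12 runs, 3 to a group, of neighbouring wells, except that RM-HS run 3 joins its medulla wells, before Sham run 1, to its other wells, after it. What this joining does to its run means and to leaving it out was not tested. HS run 3 had no medulla, and Sham run 3 was the only Sham on plate E. The labels tie neither ROIs nor runs to animals, so ROIs of an area must in part share a rat (at most 9 ROIs, 3 rats), and every p-value over ROIs in the text is too small. Depth, inferred from the steps between values and not given as counts, was 17894 to 2305964 reads per ROI. It was lowest in glomeruli, where the plate E Sham had 17894 to 41933. Podocyte markers summed to 297 to 872 in Sham glomeruli, and markers of the straight proximal tubule to 3561 to 6600 at the Sham junction against 297 to 507 in the Sham cortex.

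A member was called above background in an area when its median over all ROIs there, as a ratio to the negative probe, exceeded 2. This held for 35 of the 54 in at least 1 area: 19 members in cortex, 22 in junction, 28 in glomerular and 24 in medullary ROIs. Of all 9271 genes, 29.6%, 42.7%, 64.9% and 60.9% did so in these areas. The member just inside the limit was Akr1c18, with a median ratio of 2.01 in glomeruli, and the highest ratio just outside it was 1.96. By family, 9 of 11 Cyp1 to Cyp3 genes, 5 of 7 Cyp4, 3 of 9 other Cyp, 5 of 10 Aldh, 4 of 5 Akr1, 6 of 8 Gst and 3 of 4 Sult were above background somewhere. Only these are named below, and values are the deposited Q3-normalized signal, for which levels of different genes are not comparable.

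In Sham kidneys the first-phase enzymes with the strongest area pattern were the fatty acid hydroxylases Cyp4a14 and Cyp4a12a, both highest at the junction. Symbols are those of mouse genes: Cyp4a12a and Cyp2d12 matched no rat RefSeq name, and Cyp4a14 matched a synonym only. Which rat transcripts these probes read was not tested. Cyp4a14 had a lowest, median and highest signal of 327, 483 and 920 in 9 junction ROIs, 96.6, 144 and 451 in the cortex, 46.5, 62.3 and 262 in glomeruli, and 48.1, 51.6 and 63.2 in the medulla. Cyp4a12a had 293, 339 and 491 at the junction and 45.5, 51.6 and 103 in the cortex, ranges that did not overlap. In glomeruli and medulla Cyp4a12a was below the limit for background. Cyp2d12, a member of the P450 subfamily known for the metabolism of basic drugs, had Sham medians of 359 (cortex), 367 (junction), 331 (glomeruli) and 405 (medulla), and its ranges overlapped between all areas.

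Aldh6a1, the methylmalonate semialdehyde dehydrogenase of valine breakdown, was highest at the junction with 194, 265 and 422, against 56.4, 79.1 and 152 in the cortex. Aldh7a1, which acts in lysine breakdown and on aldehydes of lipid peroxidation, had Sham medians of 93.1 in the cortex and 117 at the junction and 34.9 in glomeruli. Aldh1l1, an enzyme of folate metabolism, had its highest Sham median, 71.5, at the junction. Among the aldo-keto reductases, Akr1a1, the aldehyde reductase that also takes part in ascorbate synthesis in rodents, had Sham medians of 245 (cortex), 329 (junction), 116 (glomeruli) and 114 (medulla). Akr1c19 had 85.4 and Akr1e1 77.4 at the junction.

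Of the second-phase enzymes, the alpha-class glutathione transferases Gsta3 and Gsta5 were high in cortex and junction and low elsewhere. Gsta3 had 164, 217 and 292 at the junction, 58.2, 111 and 202 in the cortex, 15.9, 29.1 and 58.2 in glomeruli and 18.3, 23.6 and 32.6 in the medulla. Gsta5 had 136, 185 and 268 at the junction and 42.9, 54.3 and 98.2 in the cortex. The sulfotransferase Sult1c2 had 57.2, 123 and 333 at the junction, where the 3 ROIs of plate E, at 293, 319 and 333, stood above all 6 of plate C, at 57.2 to 127. The mu-class Gstm2 went the other way, with a median of 78.8 in the medulla and 54.3 in the cortex. Other leading members of their families had Sham medians from 56.6 to 77.5 in the area where they were highest: Cyp2c66, Cyp2b19, Cyp4f16, Cyp24a1 and Sult1a1.

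**Figure D1:**
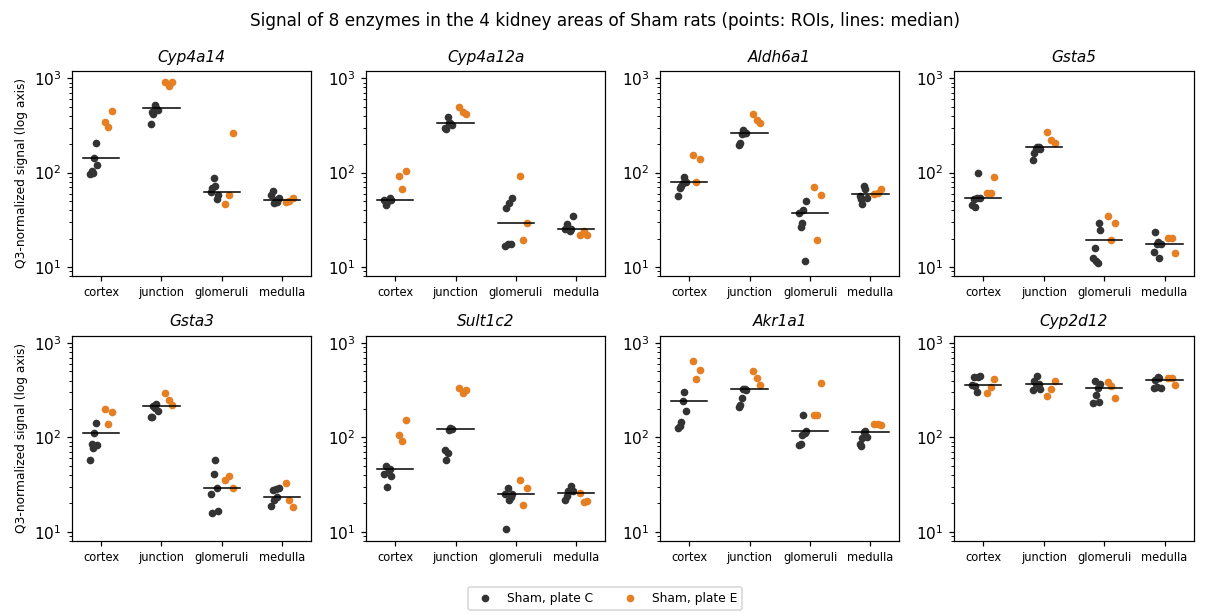
Q3-normalized signal (log axis) of 8 enzymes in each Sham ROI by kidney area, plate C in black and plate E in orange, with a line at the median of the 9 ROIs. Cyp4a14, Cyp4a12a, Aldh6a1, Gsta5, Gsta3 and Sult1c2 are highest at the junction. The ranges of Cyp2d12 overlap between all areas, and plate E often lies above plate C in cortex and junction.

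These differences were tested by limma on log2(signal + 1) over 8799 genes, of which 52 were members. At the Sham junction 10 members were higher than in the cortex (19.2% of 52) and 1 was lower, where 8.17% of all genes were called, 7.17% higher and 1% lower. The largest rises were Cyp4a12a (log2 difference 2.57 ± 0.22 SE, adjusted p = 5.57e-20), Aldh6a1 (1.68 ± 0.20, adjusted p = 2.31e-12), Cyp4a14 (1.65 ± 0.22, adjusted p = 3.37e-10), Gsta5 (1.64 ± 0.20, adjusted p = 1.39e-11) and Sult1c2 (1.23 ± 0.19, adjusted p = 9.76e-08). By family, 2 of 7 Cyp4, 2 of 10 Aldh, 3 of 8 Gst, 2 of 4 Sult and 1 of 5 Akr1 rose, and none of the 10 Cyp1 to Cyp3 or 8 other Cyp genes did. The median member differed by -0.05, the median of all genes by -0.05. After quantile normalization 14 members were higher and 7 lower. In plate E alone the Cyp4a14 difference was 1.30 (adjusted p = 0.269).

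In Sham glomeruli 30 members were lower than in the cortex (57.7%) and 0 higher, where 36.4% of all genes were lower and 2.85% higher. After quantile normalization 3 were higher and 15 lower, with 1 mean per run and area 14 were lower, with the filter at 50% of ROIs 18, and in plate E alone 10. The median member fell by 0.44 on the log2 scale and the median gene by 0.27. Gsta3 (-1.87 ± 0.21, adjusted p = 8.26e-13), Gsta5 (-1.58 ± 0.20, adjusted p = 6.84e-11), Aldh7a1 (-1.57 ± 0.17, adjusted p = 2.71e-13), Aldh6a1 (-1.33 ± 0.20, adjusted p = 1.71e-08) and Sult1c2 (-1.28 ± 0.19, adjusted p = 2.11e-08) had the largest differences, of which Gsta5 and Sult1c2 were below the limit for background in glomeruli (1.26 and 1.74 times the negative probe). All 4 Sult genes were lower, as were 5 of 7 Cyp4, 5 of 8 Gst, 6 of 10 Aldh, 5 of 10 Cyp1 to Cyp3, 3 of 5 Akr1 and 2 of 8 other Cyp genes.

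In the Sham medulla 15 members were lower than in the cortex and 1 was higher, where 5.34% of all genes were lower and 6.64% higher. Gsta3 (-2.15 ± 0.21, adjusted p = 3.77e-16), Gsta5 (-1.73 ± 0.20, adjusted p = 1.71e-12), Cyp4a14 (-1.73 ± 0.22, adjusted p = 6.41e-11) and the arachidonic acid epoxygenase Cyp2c23 (-1.26 ± 0.22, adjusted p = 4.65e-06) were among those lower. Gstm2 was the member that rose (0.55 ± 0.16, adjusted p = 0.0136), and this call was lost without any 1 of the 3 Sham runs. Medulla against junction, a comparison added after the data were seen, had 20 members lower and 0 higher, where 7.1% of all genes were lower and 3.88% higher. Among them were Cyp4a12a (-3.78), Cyp4a14 (-3.37), Gsta5 (-3.37) and Gsta3 (-3.07). In the medulla Cyp4a12a, Gsta5, Gsta3 and Cyp2c23 were at 1.38, 0.889, 1.22 and 1.31 times the negative probe, below the limit, so that no order is read from the size of their differences from junction or cortex.

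A group of these enzymes was higher in the RM cortex. Against the Sham of plate C, 8 of the 52 members rose there and 0 fell (15.4%, where 5.77% of all genes were called and 5.59% rose), led by Akr1a1, Gsta3, Cyp2c23 and Aldh7a1. They came from 6 of the families: 2 of 10 Cyp1 to Cyp3 genes, 1 of 7 Cyp4, 2 of 10 Aldh, 1 of 5 Akr1, 1 of 8 Gst and 1 of 4 Sult. The median member differed by -0.12 and the median gene by -0.07.

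Promoters of members on which these results turn are printed so that the sequence can be read beside the changes: the 3 with the largest cortical rises that RM gave, and Akr1c19, which fell at the junction. They are the 250 bases before the RefSeq transcription start in the rat assembly GRCr8, written in lower case along the gene's strand. RefSeq's promoter table matched 37 of the 54 members by symbol (39 promoters) and lists 2 starts for Gsta3. Capitals mark matches on either strand to the antioxidant response element core TGACNNNGC, the xenobiotic response element core GCGTG or the TATA box TATAAA; no matches overlapped. Akr1a1 lies at chr5:135346232-135346481, minus strand. Gsta3 lies at chr9:31154739-31154988, plus strand for one start, and at chr9:31166793-31167042, plus strand for the other. Cyp2c23 lies at chr1:252863068-252863317, minus strand, and Akr1c19 at chr17:70913666-70913915, plus strand.
Akr1a1: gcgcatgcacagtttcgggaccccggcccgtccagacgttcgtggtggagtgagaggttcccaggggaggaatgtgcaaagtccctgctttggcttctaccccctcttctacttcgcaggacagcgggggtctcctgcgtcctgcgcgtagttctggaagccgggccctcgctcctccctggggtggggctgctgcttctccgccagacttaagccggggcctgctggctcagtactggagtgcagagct
Gsta3, upstream start: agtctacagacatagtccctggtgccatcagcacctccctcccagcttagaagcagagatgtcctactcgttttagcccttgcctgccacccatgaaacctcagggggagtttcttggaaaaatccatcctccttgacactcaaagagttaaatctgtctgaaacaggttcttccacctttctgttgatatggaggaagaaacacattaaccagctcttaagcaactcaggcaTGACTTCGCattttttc
Gsta3, downstream start: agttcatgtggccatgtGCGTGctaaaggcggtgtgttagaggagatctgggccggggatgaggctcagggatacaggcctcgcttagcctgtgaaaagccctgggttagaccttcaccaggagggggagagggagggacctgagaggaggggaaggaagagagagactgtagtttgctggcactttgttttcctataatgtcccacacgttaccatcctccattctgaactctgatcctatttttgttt
Cyp2c23: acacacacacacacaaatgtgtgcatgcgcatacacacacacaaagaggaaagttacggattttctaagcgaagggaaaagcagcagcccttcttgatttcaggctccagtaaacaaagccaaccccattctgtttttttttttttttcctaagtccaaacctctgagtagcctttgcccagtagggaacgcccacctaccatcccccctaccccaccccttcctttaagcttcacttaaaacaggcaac
Akr1c19: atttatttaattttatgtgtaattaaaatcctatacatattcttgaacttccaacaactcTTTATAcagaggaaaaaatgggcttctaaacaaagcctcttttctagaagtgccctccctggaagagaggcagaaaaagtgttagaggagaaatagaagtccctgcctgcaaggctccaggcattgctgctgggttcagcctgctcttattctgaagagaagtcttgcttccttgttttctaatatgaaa
The upstream Gsta3 start held 1 match to TGACNNNGC, found in 4 of the 39 member promoters and in 10.1% of all 33469 promoters of the same length. The downstream Gsta3 start held 1 match to GCGTG, found in 15 of the 39 and in 25.9% of all. Akr1c19 held 1 match to TATAAA, found in 9 of the 39 and in 12.9% of all. Akr1a1 and Cyp2c23 held none of these letters in the window.

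In the cortex, Akr1a1 had a lowest, median and highest signal of 126, 168 and 306 in 6 Sham ROIs of plate C and of 299.9, 468 and 669 in 9 RM ROIs. All but 1 RM ROI lay above every one of these Sham ROIs. The log2 change was 1.35 ± 0.26 (SE, adjusted p = 3.32e-05). Gsta3 had 58.2, 84.0 and 144 in Sham and 122, 215 and 307 in RM, with 8 of 9 RM ROIs above all Sham (1.24 ± 0.29, adjusted p = 0.00115). Cyp2c23 had 40.2, 48.3 and 66.5 in Sham and 67.1, 136 and 160 in RM, without overlap (1.20 ± 0.30, adjusted p = 0.00363). Aldh7a1 had 58.2, 80.3 and 122 in Sham and 137, 181 and 242 in RM, also without overlap (1.17 ± 0.24, adjusted p = 0.000105). The 4 others that rose, named after their values were seen, were Cyp4a14 (1.07), Aldh6a1 (0.94), Sult1c2 (0.93) and Cyp2e1 (0.78), the ethanol-inducible P450.

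These cortical rises leaned on the spread between Sham runs. In Sham run 1, run 2 and run 3 (the last on plate E) the mean cortical Akr1a1 signal was 135, 247 and 525. In the RM runs it was 430, 538 and 458, so that the plate E Sham was as high as RM. The plate E Sham ROIs also reached the RM ranges of Gsta3 (137, 186 and 202), Cyp2c23 (76.8, 105 and 116) and Aldh7a1 (105, 111 and 170). Without Sham run 1, 0 of the 8 calls remained (Akr1a1 0.93, adjusted p = 0.207), and with 1 mean per run and area as the unit 0 remained (Akr1a1 1.35, adjusted p = 0.102). Without RM run 1 the Cyp2c23 call was lost (1.005, adjusted p = 0.0865), and with the negative probe subtracted that of Gsta3 (1.63, adjusted p = 0.0848). With the negative probe subtracted 6 of the 8 calls remained. After quantile normalization 10 members rose and 4 fell in the RM cortex, with 7 of the 8 among them.

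Some markers of the proximal tubule also rose in the RM cortex. Of 13 markers listed, 10 were in the table and 9 tested. In the RM cortex 3 rose, Slc3a1 (1.23), Slc4a4 (1.20) and Slc34a1 (1.06), and 0 fell. The change was positive, called or not, for 8 of the 9. The 4 markers of all segments summed to 374 to 545 in the plate C Sham cortex, 561 to 1035 in RM, 636 to 1148 in RM-HS, 828 to 1219 in the plate E Sham and 499.6 to 2416 in HS. The 2 early-segment markers summed to 197 to 338, 300.3 to 644, 385 to 727, 479 to 887 and 248 to 1355 in the same order, and the 4 straight-segment markers to 297 to 381, 429 to 727, 363 to 702, 400.1 to 507 and 303 to 920. Their part in the rises was not tested. In tissue regions, fewer cells of a type and less RNA per cell cannot be told apart.

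**Figure D2:**
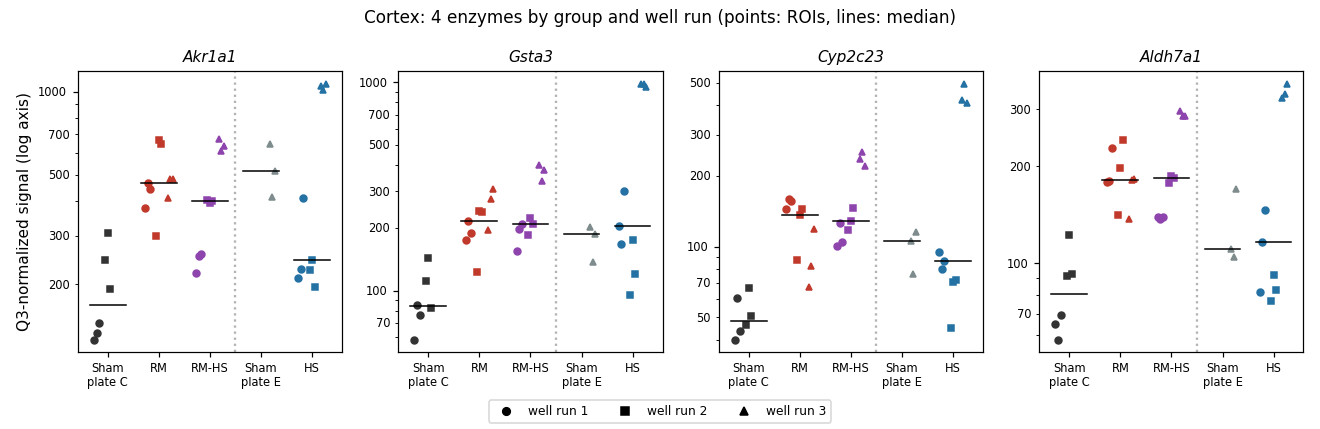
Q3-normalized signal (log axis) of Akr1a1, Gsta3, Cyp2c23 and Aldh7a1 in each cortical ROI; the dotted line separates plate C (left) from plate E (right), the marker shape gives the well run, and lines are medians. Most RM and RM-HS ROIs lie above the plate C Sham. The plate E Sham reaches the RM range for each of these enzymes, and HS run 3 stands far above the other HS runs.

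At the junction RM changed 2 members, 1 each way, where 4.84% of all genes were called, 4.3% higher and 0.546% lower. Akr1c19 had 76.9, 78.2 and 90.4 in 6 Sham ROIs of plate C and 33.7, 36.8 and 49.1 in 8 RM ROIs. All 8 RM ROIs lay below all Sham ROIs (-1.02 ± 0.19, adjusted p = 3.16e-05), at a median of 1.71 times the negative probe, against 3.33 times in Sham. This call held with 1 mean per run and area (-1.02, adjusted p = 0.0183) and without any 1 run. Cyp4a14 had 327, 451 and 521 in Sham and 519.6, 751 and 1510 in RM (0.96 ± 0.30, adjusted p = 0.0351). Without RM run 1, whose mean was 1418 against 722 and 564 in the others, the Cyp4a14 change was 0.55 (adjusted p = 0.719), without Sham run 1 it was 0.81 (adjusted p = 0.687), without Sham run 2 1.11 (adjusted p = 0.109), and after quantile normalization 0.32 (adjusted p = 0.534).

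In glomeruli RM lowered 2 members, and raised 0, where 2.35% of all genes fell and 7.71% rose. Akr1e1, an aldo-keto reductase of carbonyl compounds, had 41.5, 58.2 and 83.1 in 6 Sham ROIs and 17.1, 29.8 and 41.1 in 8 RM ROIs, without overlap (-0.98 ± 0.20, adjusted p = 0.000136). With 1 mean per run and area it changed by -1.003 (adjusted p = 0.0153). The P450 Cyp2w1 fell less (-0.62 ± 0.20, adjusted p = 0.0346), with overlapping ranges of 42.3 to 66.5 in Sham and 9.69 to 58.2 in RM. Its call was lost without RM run 2 (-0.31, adjusted p = 0.414), without Sham run 1 (-0.64, adjusted p = 0.171) and without Sham run 2 (-0.60, adjusted p = 0.159). The Cyp2w1 call was also lost with 1 mean per run and area, with the negative probe subtracted, and with all Sham and a plate term. Podocyte markers were higher in RM glomeruli for 3 of 4 tested, with a summed level of 576 to 1049 against 297 to 563 in the plate C Sham, and their part was not tested. In the medulla limma called 0 of 52 members in RM (1 at an unadjusted p under 0.05), where 5.32% of all genes were called, 4.6% higher and 0.716% lower.

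Averaged over the 4 areas, RM raised Akr1a1 (0.66 ± 0.18, adjusted p = 0.00647) and Aldh7a1 (0.49 ± 0.17, adjusted p = 0.0467) and lowered Akr1c19 (-0.44 ± 0.13, adjusted p = 0.0168), 3 of 52 where 8.46% of all genes were called, 7.65% higher and 0.807% lower. After quantile normalization the Akr1a1 average was 0.22 (adjusted p = 0.23) and 2 members rose and 5 fell, and with 1 mean per run and area it was 0.65 (adjusted p = 0.191) and 0 of the 3 calls remained. Without Sham run 1 the Akr1a1 value was 0.38 (adjusted p = 0.755), and without RM run 2 it was 0.61 (adjusted p = 0.0542). The Aldh7a1 call was lost without Sham run 1 (0.19, adjusted p = 0.89), Sham run 3, any 1 RM run, and RM-HS runs 1 or 2, and the Akr1c19 average without Sham run 1 (-0.39, adjusted p = 0.327), Sham run 2, RM run 1 or RM run 2. The RM effect differed between areas for 9 members by the F test (17.3%, against 6.97% of all genes). The lowest p-values were those of Cyp2c23 (adjusted p = 0.00204), Aldh6a1 (adjusted p = 0.00407), Aldh7a1 (adjusted p = 0.0113) and Akr1e1 (adjusted p = 0.0122). For Cyp2c23, below the limit for background in glomeruli and medulla, the cortical change of 1.20 stood beside changes of -0.36 (junction), 0.39 (glomeruli) and -0.24 (medulla).

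RM-HS, the combined group, changed the cortex in the same 8 members as RM. All 8 rose and 0 fell (15.4%, where 4.08% of all genes were called and 3.92% rose); both comparisons use the same Sham ROIs. Cyp2c23 had 101, 128 and 252 in 9 RM-HS ROIs, all above the plate C Sham (1.55 ± 0.30, adjusted p = 0.000101). Cyp4a14 had 216, 296 and 573 against 96.6, 111 and 207 in Sham, again without overlap (1.502 ± 0.29, adjusted p = 0.000104). Gsta3 had 155, 209 and 399.8 (1.43 ± 0.29, adjusted p = 0.000166) and Aldh7a1 138, 184 and 297 (1.26 ± 0.24, adjusted p = 4.49e-05), both above every Sham ROI of plate C. RM-HS run 3 was highest for each of these 4, with a mean Gsta3 signal of 372 against 187 and 205 in runs 1 and 2. Without Sham run 1, 1 of the 8 calls remained, Cyp2c23, and with 1 mean per run and area 0 remained (Cyp2c23 1.55, adjusted p = 0.203). After quantile normalization 12 rose and 4 fell, with all 8 among them. With the negative probe subtracted 5 of the 8 calls remained, and that of Gsta3 was lost. The same 3 proximal tubule markers rose in the RM-HS cortex: Slc4a4 (1.19), Slc34a1 (1.08) and Slc3a1 (1.05).

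At the RM-HS junction 1 member fell and 0 rose, where 5.44% of all genes were called, 4.69% higher and 0.75% lower. It was Akr1c19, with 35.4, 40.3 and 50.4 in 8 ROIs, all below the Sham ROIs (-0.97 ± 0.19, adjusted p = 7.55e-05). With 1 mean per run and area it was -0.98 (adjusted p = 0.0229), and it was called in all other settings and without any 1 run. In RM-HS glomeruli 3 members were called, 2 higher and 1 lower, where 4.85% of all genes were, 3.78% higher and 1.07% lower. Gsta3 had 37.0, 58.4 and 95.2 in 6 ROIs against 15.9, 27.0 and 58.2 in Sham (0.99 ± 0.31, adjusted p = 0.0401), and Aldh7a1 had 36.3, 69.3 and 132 against 17.4, 39.3 and 76.3 (0.78 ± 0.25, adjusted p = 0.0485). Akr1e1 fell (-0.76 ± 0.21, adjusted p = 0.0132): 5 of 6 ROIs lay at 15.5 to 37.0, below all Sham ROIs, and 1 at 84.6 lay above them. None of these 3 glomerular calls held with 1 mean per run and area. Without Sham run 1 the Gsta3 change was 0.85 (adjusted p = 0.255) and that of Aldh7a1 0.41 (adjusted p = 0.564), and both were also lost without any 1 RM run or without RM-HS runs 1 or 2, and Gsta3 without RM-HS run 3 or Sham run 2. Akr1e1 was lost without RM-HS run 3 (-0.42, adjusted p = 0.369), RM-HS run 1 or Sham run 2. Podocyte markers summed to 386 to 752 in these ROIs, and their part was not tested.

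In the RM-HS medulla 1 member rose, Cyp2d12, where 3.89% of all genes were called and 3.3% rose. It had 402, 682 and 805 in 9 ROIs against 333, 375 and 442 in 6 Sham ROIs, and 8 of the 9 lay above every Sham ROI (0.71 ± 0.18, adjusted p = 0.00585). Its run means were 751, 465.8 and 687, the last from the medulla wells that were joined to RM-HS run 3. The change was 0.34 after quantile normalization (adjusted p = 0.513) and 0.64 without Sham run 1 (adjusted p = 0.285), and it was also lost without RM-HS run 1 (0.57, adjusted p = 0.0787) or run 3 (0.64, adjusted p = 0.0504) and with 1 mean per run and area (adjusted p = 0.52).

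As the average over areas, RM-HS raised 5 members and lowered 0 (9.62%, where 7.01% of all genes were called and 6.16% rose): Cyp2c23 (0.71 ± 0.21, adjusted p = 0.0205), Aldh7a1 (0.69 ± 0.17, adjusted p = 0.00196), Cyp4a14 (0.66 ± 0.21, adjusted p = 0.0305), Gsta3 (0.66 ± 0.20, adjusted p = 0.0261) and Cyp2d12 (0.46 ± 0.13, adjusted p = 0.0106). None of the 5 calls was made without Sham run 1 or with 1 mean per run and area. Without RM-HS run 3 those of Cyp2c23 (0.64), Cyp4a14 (0.57) and Gsta3 (0.56) were lost, as they were without RM-HS run 2. Without RM-HS run 1 the Cyp2d12 average was 0.24, and without Sham run 2 the Cyp2d12 and Cyp4a14 calls were lost. After quantile normalization the Cyp2d12 average was 0.03, and the calls of Cyp2d12 and Gsta3 were lost. With the negative probe subtracted those of Cyp2c23 and Gsta3 were lost. The RM-HS effect differed between areas for 5 members (5.57% of all genes), with the lowest p-values for Cyp4a14 (adjusted p = 0.00321), Gsta3 (adjusted p = 0.00421), Akr1c19 (adjusted p = 0.00737) and Cyp2c23 (adjusted p = 0.0164).

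**Figure D3:**
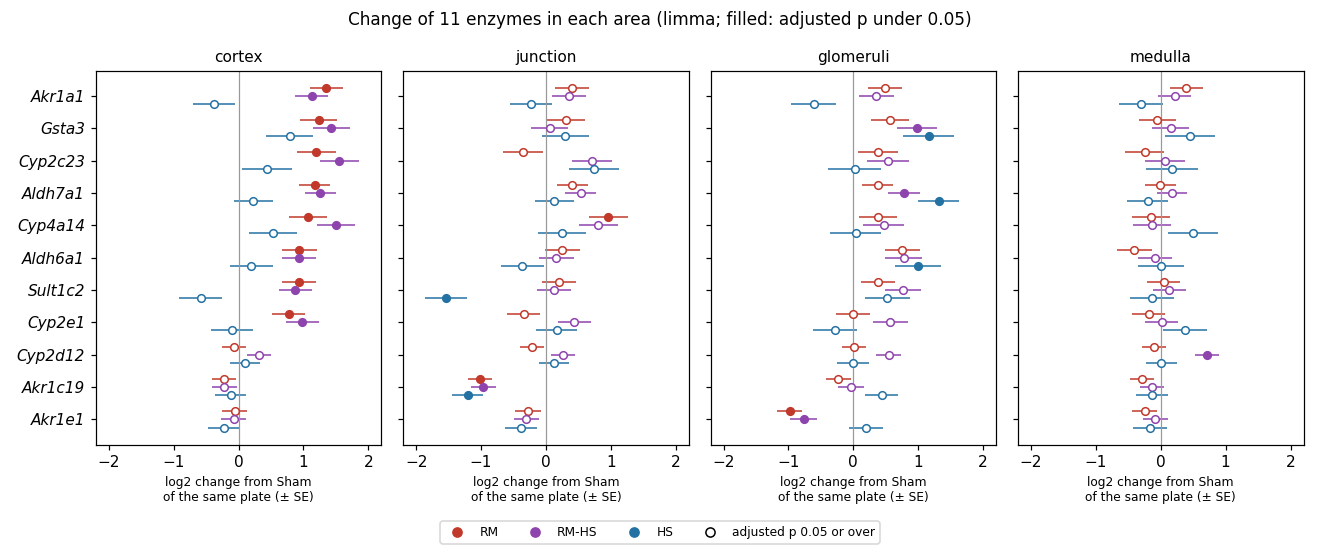
Change from Sham of the same plate (log2, ± SE, limma) of 11 enzymes in each area for RM, RM-HS and HS; filled points have an adjusted p under 0.05. In the cortex 8 enzymes are filled for both RM and RM-HS, at the junction Akr1c19 is filled for all 3 injuries, and HS is filled in junction and glomeruli only.

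HS changed no member as the average over areas: limma called 0 of 52 (2 at an unadjusted p under 0.05), where 0.193% of all genes were called, 0.148% higher and 0.0455% lower. The lowest p-values belonged to Gsta3 (0.67 ± 0.26, adjusted p = 0.597), Cyp4a12a (0.57 ± 0.27, adjusted p = 0.83) and Cyp1b1, a P450 of steroid and hydrocarbon metabolism (-0.36). The comparison rests on a single Sham run, with 3 ROIs in each area, so that the spread between Sham runs is assumed to be that of the other groups in the fit, for this and every HS result in the text. In the cortex 0 members were called (6 at an unadjusted p under 0.05; 0.0796% of all genes called, 0.0568% higher and 0.0227% lower) and in the medulla 0 (2 unadjusted; 0.273% of all genes, 0.0341% higher and 0.239% lower). HS cortex was split by run: the mean Gsta3 signal was 972 in run 3 against 224 and 130 in runs 1 and 2, and that of Akr1a1 was 1045 against 283 and 221, with 525 in the Sham of the plate. Without HS run 3, 8 members were called in the average, 4 each way, and Cyp4a12a changed sign to -0.04. Without HS run 2 the Gsta3 average was 0.99 (adjusted p = 0.0128).

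At the HS junction 2 members fell and 0 rose, where 0.193% of all genes were called, 0.125% higher and 0.0682% lower. Sult1c2 was 293, 319 and 333 in the 3 Sham ROIs and had 71.1, 110 and 190 in 9 HS ROIs, all lower (-1.54 ± 0.33, adjusted p = 0.0127). Akr1c19 was 90.1, 123 and 133 in Sham and had 38.2, 49.2 and 60.9 in HS, all lower (-1.20 ± 0.24, adjusted p = 0.00545). Both changes kept their direction in plate E alone, without a call (adjusted p = 1 for both). With all Sham ROIs and a plate term, Akr1c19 changed by -0.83 (adjusted p = 0.0468) and Sult1c2 by -0.90 (adjusted p = 0.497). Neither HS call held with 1 mean per run and area (adjusted p = 1 for both) or with the negative probe subtracted (Akr1c19, adjusted p = 0.655), unlike the calls of Akr1c19 in RM and RM-HS. Akr1c19 had junction run means of 77.9, 84.2 and 116 in Sham, 36.7, 41.4 and 41.4 in RM, 40.7, 36.3 and 45.8 in RM-HS and 56.4, 49.3 and 42.7 in HS. In the cortex, where it was below the limit for background (1.78 times the negative probe), its changes were -0.22, -0.22 and -0.12 in RM, RM-HS and HS, none called.

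**Figure D4:**
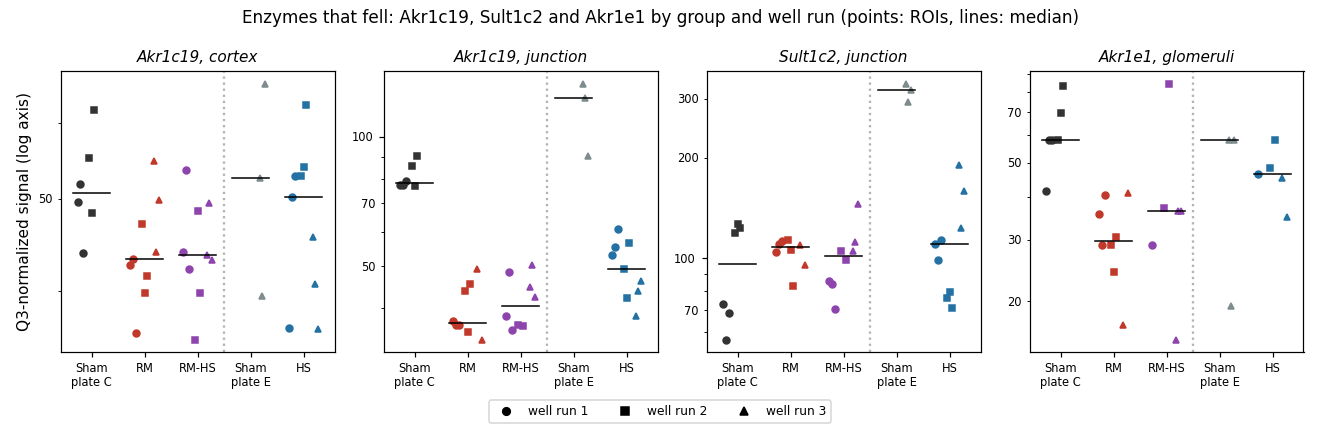
Q3-normalized signal (log axis) per ROI of Akr1c19 in cortex and junction, Sult1c2 at the junction and Akr1e1 in glomeruli; the dotted line separates plate C from plate E, shapes give well runs and lines medians. At the junction every Akr1c19 point of RM, RM-HS and HS lies below every Sham point of its plate, while the cortical ranges overlap.

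In HS glomeruli 7 members were called, 5 higher and 2 lower (13.5%, where 19.5% of all genes were, 9.9% higher and 9.63% lower). Cyp2c66 was 19.4, 29.1 and 34.9 in Sham and 19.4, 40.7, 107, 128 and 128 in the 5 HS ROIs (1.33 ± 0.29, adjusted p = 0.000304). Aldh7a1 was 11.6, 19.4 and 29.1 in Sham and 34.9, 34.9, 48.5, 69.8 and 71.1 in HS, without overlap (1.32 ± 0.32, adjusted p = 0.00121). Gsta3 was 29.1, 34.9 and 38.8 in Sham and 46.5, 46.5, 48.5, 155 and 192 in HS, the 2 highest from run 3 (1.16 ± 0.39, adjusted p = 0.0231). Without HS run 3 the Gsta3 change was 0.48 (adjusted p = 0.257). With all Sham and a plate term the Aldh7a1 change was 0.62 (adjusted p = 0.178). The Aldh7a1 and Gsta3 calls were also lost after quantile normalization, in plate E alone and with 1 mean per run and area. Cyp4f40 rose by 1.07 (adjusted p = 0.00482), and Akr1c18, a hydroxysteroid dehydrogenase, fell by 1.31 on the log2 scale (adjusted p = 0.00164). After quantile normalization these were 0.61 (adjusted p = 0.0853) and -0.70 (adjusted p = 0.0816), both calls were also lost in plate E alone, and that of Akr1c18 with the negative probe subtracted (adjusted p = 0.184). The 3 Sham ROIs had 17894, 20345 and 41933 reads, and the negative probe in them was 17.9, 21.4 and 30.9. No member had a lower value in any of these ROIs than Aldh7a1, whose Sham values thus lay at the floor of the assay. The Sham values of Cyp4f40, at 19.4, 23.3 and 29.1, lay at the level of the negative probe, and those of Cyp2c66 and Gsta3 near it. The size of these rises is therefore uncertain.

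The HS effect differed between areas for 9 members (17.3%, against 15.3% of all genes), first Akr1c19 (adjusted p = 5.23e-05), Cyp2c66 (adjusted p = 0.000249), Sult1c2 (adjusted p = 0.000327) and Akr1c18 (adjusted p = 0.000504). Akr1c18 was above the limit for background in glomeruli only, and Sult1c2 in cortex and junction only. In glomeruli the plate E Sham values of Cyp2c66 lay near the negative probe. Over all injuries, most calls of the F tests were lost with 1 mean per run and area. The RM and HS effects, each against its own Sham, were also compared directly. With 1 mean per run and area the differences of Akr1a1 (adjusted p = 0.506 for the average and 1 for the cortex) and Sult1c2 (adjusted p = 0.739 for the cortex and 0.394 for the junction) given next were not called. As the average over areas 1 member differed, Akr1a1 (1.04 ± 0.29, adjusted p = 0.0263), where 2.59% of all genes did, and the call was lost without Sham run 1 (0.76, adjusted p = 0.686), without any 1 RM run, and without HS run 1 or HS run 2. In the cortex Akr1a1 (1.73, adjusted p = 0.00845) and Sult1c2 (1.52, adjusted p = 0.0355) differed, 2 of 52 where 1.1% of all genes did. Without Sham run 1 neither was called (1.31 and 1.45), nor was either without HS run 1 or HS run 2, and the Sult1c2 call was lost without most other single runs too. At the junction Sult1c2 differed (1.74, adjusted p = 0.0137; 0.625% of all genes), with a value of 0.77 with all Sham and a plate term and of 1.29 without Sham run 1 (adjusted p = 0.675). In glomeruli 4 members were lower in the RM effect (6.16% of all genes), led by Cyp2w1 (-1.26, adjusted p = 0.00588), Akr1e1 (-1.17, adjusted p = 0.00793) and Cyp2c66 (-1.08, adjusted p = 0.0321). With all Sham and a plate term these were -0.50, -0.65 and -0.43, without a call, and none was called with 1 mean per run and area. The plate E Sham values of Cyp2w1 were 19.4, 23.3 and 29.1, beside a negative probe of 17.9, 21.4 and 30.9. The Akr1e1 call was lost without Sham run 2 (-0.96), and that of Cyp2c66 without HS run 2 (-0.62), HS run 1, Sham run 1 (-0.78), RM run 1 or RM run 3. In the medulla 0 were called (2 at an unadjusted p under 0.05; 2.06% of all genes).

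RM-HS against RM asks what HS added to RM, within plate C. Averaged over areas Cyp2d12 was the 1 member called (0.55 ± 0.12, adjusted p = 0.00582; 0.239% of all genes), and it was higher in the medulla, at 402 to 805 in RM-HS against 248, 330 and 568.4 in 9 RM ROIs (0.82 ± 0.16, adjusted p = 0.000961; 0.602% of all genes). RM run means in the medulla were 508, 315 and 274. The average was 0.33 without RM-HS run 1 (adjusted p = 1), 0.42 without RM run 2 and 0.45 without RM run 3, none of them called, and the medullary value was 0.64 without RM run 3 (adjusted p = 0.178). Neither call held with 1 mean per run and area (adjusted p = 1 for both). In glomeruli 1 member that was not above background was called, higher (0.864% of all genes). In the cortex limma called 0 members and 0 of all 8799 genes (1 member at an unadjusted p under 0.05), and at the junction 0 members (3 unadjusted; 0.421% of all genes). For the 8 members that rose in the cortex under both, RM-HS and RM differed by -0.22 ± 0.23 (Akr1a1) to 0.44 ± 0.26 (Cyp4a14), which does not show that they were alike.

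Enzymes and regulators around these families were followed through a list of 62 genes, of which 41 were in the table and 39 tested. Averaged over areas RM raised 8 and lowered 0: Gclm, the modifier subunit of the enzyme that limits glutathione synthesis (1.39, adjusted p = 2.54e-08), Ugdh, which makes UDP-glucuronic acid (1.15, adjusted p = 4.58e-11), the epoxide hydrolase Ephx1 (0.90, adjusted p = 3.39e-05), Por, the electron donor of microsomal P450s (0.75, adjusted p = 0.000742), Nfe2l2, the transcription factor of the antioxidant response (0.71, adjusted p = 2.32e-07), and the exporter Abcc2 (0.61, adjusted p = 0.00132) led. Of all genes 7.65% rose in this comparison, and the median of the 39 was 0.09. In the RM cortex 9 rose and 0 fell (5.59% of all genes rose), Gclm by 2.37 and Ephx1 by 2.29. RM-HS raised 4 on average and lowered 0, where 6.16% of all genes rose: Gclm (0.94), Ugdh (0.82), Por (0.80) and Nfe2l2 (0.64). In HS 0 of 39 were called on average (0.193% of all genes were), and in HS glomeruli 4 rose and 5 fell, near the 9.9% and 9.63% of all genes that did, among them Por (-1.15) and Slc22a8 (1.54), an uptake carrier of organic anions. Against RM, the RM-HS junction was lower for 2 of the 39 (0.159% of all genes), Abcc2 (-0.97) and Hnf4a (-0.89), and higher for 0. The calls of this list were not followed through the alternatives. For the members, 0 of the 8 calls in the RM cortex remained without Sham run 1 or with 1 mean per run and area.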

How the data were processed

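Values are the deposited Q3-normalized signal: per the labels' protocols and the table itself, the authors multiplied each ROI's probe reads by 1 factor that sets the same 75th percentile in all ROIs. GRCh38 and hg38 are builds listed, with no role, in the submitters' processing notes; software names are not given in the sources used. Every value was a whole multiple of a step per ROI within 0.001 reads. Depths are inferred from that step and were not used in a test, and limits on counting error cover reads only.

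Group and area came from the labels, and plate and well run from the column names. limma 3.58.1 (R 4.3.3, statmod 1.5.0) was fitted to log2(signal + 1). The negative probe was not subtracted, so that changes of low genes are understated. The fit had 20 means of group, area and plate over 131 ROIs, with well run as a random block (correlation 0.137) and a trended prior. Genes were kept where the signal exceeded 2 times the negative probe in 10% of ROIs (8799 of 9271, with 52 of 54 members), and p-values were adjusted by Benjamini-Hochberg over all 8799 at a threshold of 0.05. All p-values printed are from such limma fits. These were run on simulated data with normal noise and no plate difference, which cannot show how plates, shared animals or signal near background affect them. Labels name no separate animals, so p-values measure the spread between ROIs.

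Members named had to be above background in the area described (for a difference between areas, in at least 1 of them), and 3 with their highest Sham median in an area where they were not are left out: the 3 highest Sham medians of each family, the 5 largest called differences each way between Sham areas, the 6 for an average over areas (the 3 lowest p-values where under 3 were called), the 4 for an area, the 3 for RM-HS against RM or RM against HS effects, the 4 lowest p-values of an F test and up to 6 companions an injury. The members and lists were chosen with earlier results of these data known. Alternatives were another pseudocount, filter, normalization, background, plate handling, block, unit and each run left out. Mouse symbols were matched to rat RefSeq names for 44 members by symbol and 4 by synonym, and 6 were unmatched. Among the unmatched were Cyp4a12a, Cyp2d12, Cyp2b19 and Cyp4f16.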

Additional observations from a re-analysis of the deposited data

Results flagged for a closer look

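The RM effect and the HS effect, each against the Sham of its own plate, differed for Akr1a1 as the average over areas (1.04) and in the cortex (1.73), and for Sult1c2 in the cortex (1.52) and at the junction (1.74). In glomeruli the RM effect was lower than the HS effect for Cyp2w1 (-1.26), Akr1e1 (-1.17), Cyp2c66 (-1.08) and Cyp26a1 (-0.91). All are log2 differences called by limma, which called 13.9% of all genes in the glomerular comparison. With 1 mean per run and area none of the calls of Akr1a1, Sult1c2, Cyp2w1, Akr1e1 and Cyp2c66 held. Those of Cyp2w1, Akr1e1 and Cyp2c66 were also lost with all Sham and a plate term. For Cyp26a1 no alternatives are given.

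The effect of an injury differed between the 4 areas by limma's F test for Cyp2c23 (adjusted p = 0.00204), Aldh6a1 (adjusted p = 0.00407), Aldh7a1 (adjusted p = 0.0113) and Akr1e1 (adjusted p = 0.0122) in RM. In HS it differed for Akr1c19 (adjusted p = 5.23e-05), Cyp2c66 (adjusted p = 0.000249), Sult1c2 (adjusted p = 0.000327) and Akr1c18 (adjusted p = 0.000504). In RM-HS it differed for Cyp4a14 (adjusted p = 0.00321), Gsta3 (adjusted p = 0.00421), Akr1c19 (adjusted p = 0.00737) and Cyp2c23 (adjusted p = 0.0164). Not all of these members were above background in each area: Akr1c18 was so in glomeruli only, and Sult1c2 and Cyp2c23 in cortex and junction only. Most calls of the F tests were lost with 1 mean per run and area.

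One ROI stood far from the rest of its group: Akr1e1 was 84.6 in the highest of 6 RM-HS glomerular ROIs. This was 1 of 36 groups looked at, and chance marks about 1 in 20.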

How the results depend on the processing

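Of 534 values of named members under alternatives that kept all runs, 452 kept direction and side of the threshold, 81 lost the call, 1 gained it and 0 changed sign. Without 1 run, 595 of 691 kept both, 94 lost the call, 1 gained it and 1 changed sign (Cyp4a12a, HS average, -0.040 without HS run 3 and 0.89 without HS run 2, the range over runs). The cause was not tested for any of these.

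Counts of members called moved by over 1.5 times as follows. With 1 mean per well run and area, RM had 0 on average (3 in the main analysis), 2 by area (12) and 0 in the cortex (8), RM-HS 0 (5), 1 (13) and 0 (8), HS by area 3 (9), RM-HS against RM 0 (1) and 1 by area (2), RM against HS effects 0 (1), the F tests 2 (23), Sham glomeruli 14 (30) and Sham medulla 8 (16). With each plate fitted alone, RM had 17, 26 and 13, RM-HS 12 and 23 by area, HS 1 by area, and RM-HS against RM 3 and 13. In plate E alone, Sham junction, glomeruli and medulla had 6 (11), 10 and 9. With no random block, RM had 17 and 19 by area, RM-HS 12, HS 2 (0), RM-HS against RM 4, RM against HS effects 3 and the F tests 13. After quantile normalization, RM had 7 (2 higher, 5 lower), 19 (10 and 9) and 14 (10 and 4), RM-HS 22 by area (14 and 8) and 16 in the cortex (12 and 4), RM against HS effects 2, Sham junction 21 (14 and 7) and Sham glomeruli 18 (3 and 15). With the negative probe subtracted, HS had 1 and 20 by area and RM-HS against RM 1 by area. With the filter at 50% of ROIs, Sham glomeruli had 18. Members above background were 54 at a ratio of 1.5 and 14 at 3 (35 at 2).

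Leaving out 1 run gave 0 to 14 (RM average), 2 to 22 (RM by area), 0 to 12 (RM cortex), 0 to 11 (RM-HS average), 3 to 20 (RM-HS by area), 1 to 9 (RM-HS cortex), 0 to 8 (HS average), 9 to 18 (HS by area), 0 to 3 (RM-HS against RM, average) and 0 to 6 (by area), 0 to 11 (RM against HS effects), 11 to 28 (F tests), 8 to 13 (Sham junction), 23 to 31 (Sham glomeruli) and 10 to 19 (Sham medulla). HS run 3 left out gave the highest RM counts and Sham run 1 left out the lowest by area and in the cortex.

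The planned count model on recovered reads was not run. No paired analysis was possible because the labels give no replicate numbers shared between groups. Depth limits glomeruli most, at 17894 to 209188 reads, and the plate E Sham, with 3 ROIs an area, limits HS.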
